A study of Mus musculus with 29 samples.

Results

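The outer segment is the light-sensing compartment of rods and cones, a modified cilium filled with stacked membrane discs. The genes described here encode proteins that build this structure or the matrix around it, and were listed by symbol, by what their proteins are known to do. There are 9 of them: Prph2 and Rom1, tetraspanins of the disc rim, Prom1, Cdhr1, Fscn2, Rp1, Tulp1, Impg1 and Impg2. Of these, 8 are among the 18194 genes with a probe set on the array, with 10 of the 45101 probe sets, and the annotation used here lists no probe set for Impg2. Rp1 and Impg1 had 2 probe sets each, and the one with the higher mean over all arrays represents the gene unless another is named.

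RNA from dissected mouse retinas was hybridized to Affymetrix arrays in 29 samples of 10 groups. The strains were C57BL6/J, the wild-derived CAST/EiJ, AKR/J, RD7, which carries the recessive rd7 retinal mutation, and NOD.NON-H2-nb1, each before birth, at E18.5, and after it, at P30.5, where E counts embryonic and P postnatal days. Each array carried RNA of equal amounts from 10 retinas, and the groups held 3 arrays each, apart from the 2 of AKR/J at E18.5. No treatment was given, and the sex of the mice is not stated in the sources used here. Replicate numbers only name the arrays, and p-values measure the spread between pools. Each sample title also holds a date, called the array date here, and the titles do not state what it dates. Values are MAS5 signals, a linear intensity scaled within each array by the authors, whose median over all probe sets lay between 91.9 and 135.0 in each array. Replicates correlated at 0.893 to 0.938 over all probe sets on the log2 scale. A probe set was called at an adjusted p under 0.001 in limma and a change of at least 2-fold.

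Discs form at the base of the outer segment, and the mouse retina makes them only after birth. Prph2 and Rom1 form complexes that hold the curved rim of each disc, Prom1 and Cdhr1 lie where the plasma membrane pushes out to make discs, Fscn2 is an actin bundling protein, Rp1 binds the microtubules of the axoneme and Tulp1 carries proteins from the inner segment towards the outer segment. Impg1 and Impg2 are proteoglycans of the matrix between photoreceptors and pigment epithelium. The label of the tissue was checked with rod markers. The mean log2 signal of 3 measured rod markers, Gnat1, Nrl and Sag, was 14.33 to 15.38 over the P30.5 arrays and 6.32 to 9.04 over the E18.5 arrays. Of 4 cone markers, the mean was 13.53 to 13.59 in RD7 at P30.5, above the 11.48 to 12.78 of the other P30.5 arrays.

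The promoters of Prph2 and its partner Rom1, and of Impg1, are shown because Prph2 varied most between strains at P30.5, Rom1, its partner, did not, and Impg1 gave different answers by probe set. Each is the RefSeq sequence of the 250 bases before a listed start of the gene in GRCm38.p6. It runs 5′ to 3′ on the strand of the gene, with the letters TAATC or their reverse GATTA in capitals. For Prph2 and Rom1 the listed start is the start of the annotated gene. For Impg1 it lies inside the annotated gene, chr9:80312773-80465654, and so does most of the stretch shown. TAATC is the core that homeodomain factors of the CRX and OTX family recognise.
Prph2, chr17:46910228-46910477, plus strand: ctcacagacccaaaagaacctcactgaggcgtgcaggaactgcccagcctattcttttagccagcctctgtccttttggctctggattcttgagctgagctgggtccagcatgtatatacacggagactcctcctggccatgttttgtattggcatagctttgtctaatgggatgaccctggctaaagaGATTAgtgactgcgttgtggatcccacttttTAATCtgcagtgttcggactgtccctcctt
Rom1, chr19:8929357-8929606, minus strand: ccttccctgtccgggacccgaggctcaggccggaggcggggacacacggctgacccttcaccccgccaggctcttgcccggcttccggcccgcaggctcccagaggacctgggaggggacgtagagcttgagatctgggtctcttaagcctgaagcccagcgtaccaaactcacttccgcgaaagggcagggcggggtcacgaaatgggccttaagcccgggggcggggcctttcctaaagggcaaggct
Impg1, chr9:80465439-80465688, minus strand: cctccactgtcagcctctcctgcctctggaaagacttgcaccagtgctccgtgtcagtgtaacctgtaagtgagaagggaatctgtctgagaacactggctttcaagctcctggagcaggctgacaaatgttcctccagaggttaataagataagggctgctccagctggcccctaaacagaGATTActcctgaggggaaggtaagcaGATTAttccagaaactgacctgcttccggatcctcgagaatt
RefSeq listed promoters for 8 of the 9 members, 9 in all, and none for Rp1. The full CRX core TAATCC, searched on both strands, was in 0 of the 9 and in 6.25% of 32851 promoters of this length. The NRL motif TGCTGA was also in 0 of the 9 and in 16.1% of all. The shorter TAATC, which overlaps TAATCC and was added after the sequences were seen, was in 4 of the 9 and in 19.8% of all. Prph2 held it 30 and, reversed, 61 bases before the start, and Impg1 held it reversed 42 and 68 bases before its internal start. A match is a description of these letters only.

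The first comparison asked how the members changed from E18.5 to P30.5. All 8 measured members rose in each of the 5 strains. Of all probe sets, 5.46% were called higher at P30.5 in C57BL6/J, 5.54% in CAST/EiJ, 4.96% in AKR/J, 5.4% in RD7 and 5.27% in NOD.NON-H2-nb1. For every member, each P30.5 array lay above each E18.5 array of its strain. The median log2 fold change of the 8 was 5.02 in C57BL6/J, 5.31 in CAST/EiJ, 6.41 in AKR/J, 5.95 in RD7 and 6.04 in NOD.NON-H2-nb1, where the median over all probe sets was between 0.01 and 0.14. These counts draw on the spread of all 10 groups. Fitted on the 2 groups of a strain alone, the counts were 4 in C57BL6/J, 4 in CAST/EiJ, 0 in AKR/J, 3 in RD7 and 4 in NOD.NON-H2-nb1.

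**Figure D1:**
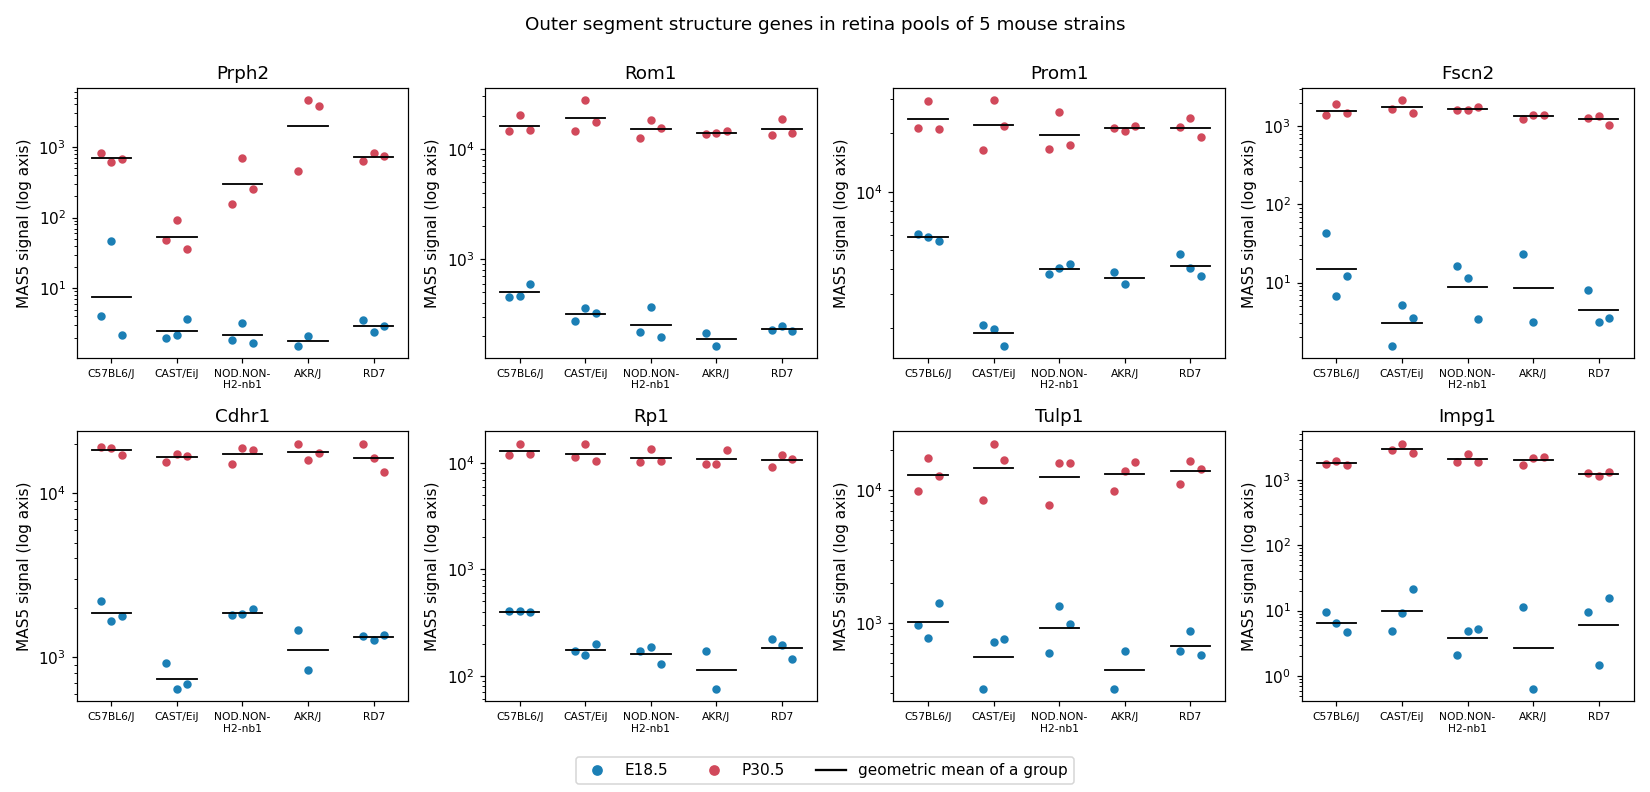
MAS5 signal (log axis) of the 8 measured members in every array, by strain (x axis) and age (colour), with the geometric mean of each group as a line. Every P30.5 point lies above the E18.5 points of its strain, and the E18.5 points of Prph2, Fscn2 and Impg1 are at signals under 50.

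Among the disc rim genes, Rom1 was well measured at both ages. Its signals in C57BL6/J were 451, 467 and 600 at E18.5 and 14475, 14739 and 20344 at P30.5. The change was 5.02 on the log2 scale (SE 0.25, adjusted p = 3.8e-12 in limma, 3 arrays per age). It was 5.92 in CAST/EiJ, 6.23 in AKR/J, 6.03 in RD7 and 5.93 in NOD.NON-H2-nb1, and the P30.5 arrays of all strains overlapped between 12656 and 27815.

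Prph2 started from signals of 1.54 to 4.07 in 13 of the 14 E18.5 arrays, and of 46.2 in C57BL6/J replicate 2. In C57BL6/J the rise was 6.56 (SE 0.86, adjusted p = 4.11e-06), and it was 10.12 in AKR/J, 7.97 in RD7 and 7.13 in NOD.NON-H2-nb1. In CAST/EiJ the rise was 4.43 (SE 0.86, adjusted p = 0.000427), and the call was lost without any one of the 6 CAST/EiJ arrays, with an adjusted p of up to 0.00378. Signals this far under the array median make the fold depend on the scale. On log2(signal + 16) the rises were 4.66 in C57BL6/J, 1.93 in CAST/EiJ (adjusted p = 0.0171), 6.83 in AKR/J, 5.3 in RD7 and 4.13 in NOD.NON-H2-nb1.

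Prom1 and Cdhr1, the membrane proteins of forming discs, were already well measured at E18.5. Prom1, which retinal progenitors also express, went from 5558 to 6102 at E18.5 to 21166 to 29200 at P30.5 in C57BL6/J. That rise of 2.01 (SE 0.21, adjusted p = 1.39e-07) was the smallest of any member in that strain, and the rises in the other strains were 2.27 to 3.55. Cdhr1 went from 1667 to 2208 up to 17057 to 19168 in C57BL6/J, a rise of 3.29 (SE 0.20, adjusted p = 4.94e-11). The rise was 4.49 in CAST/EiJ, 4 in AKR/J, 3.62 in RD7 and 3.22 in NOD.NON-H2-nb1.

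Of the cytoskeletal members, Rp1 had E18.5 signals of 397, 403 and 404 in C57BL6/J and P30.5 signals of 11818, 12046 and 15192. It rose by 5.01 there (SE 0.26, adjusted p = 4.95e-12) and by 5.86 to 6.58 in the other strains. Fscn2 was at signals of 1.56 to 43.1 in all 14 E18.5 arrays and of 1050 to 2173 in all 15 P30.5 arrays. Its rises of 6.71 to 9.17 had adjusted p-values of 2.5e-07 or less. In the authors' RMA values, log2 expression normalized across arrays, which hold 3 of the 10 probe sets, Fscn2 rose by 5.18 to 5.59. In log2 units the MAS5 rise was thus over 1.5 times the RMA rise in CAST/EiJ (9.17 and 5.45) and in RD7 (8.1 and 5.24). As plain folds the 2 differ by far more.

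Tulp1, the transport protein, had the largest standard error of the 5 members that were well measured at both ages. Its signals in C57BL6/J were 782, 980 and 1415 at E18.5 and 9863, 12788 and 17503 at P30.5, a rise of 3.66 (SE 0.42, adjusted p = 7.77e-07). Elsewhere it rose by 4.7 in CAST/EiJ, 4.86 in AKR/J, 4.35 in RD7 and 3.75 in NOD.NON-H2-nb1. Impg1, of the matrix, was at 0.629 to 21.7 in the E18.5 arrays and at 1156 to 3588 in the P30.5 arrays. It rose by 7.68 in RD7 to 9.55 in AKR/J, and by 5.7 to 6.8 on log2(signal + 16). By its dimmer second probe set the change was smaller, at 5.14 in NOD.NON-H2-nb1, 5.36 in AKR/J and 4.63 in C57BL6/J, and in 2 strains it was not called, with 2.2 in CAST/EiJ (adjusted p = 0.0169) and 2.91 in RD7 (adjusted p = 0.00212).

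Other photoreceptor genes moved the same way. Of a list of 27, which holds phototransduction genes, photoreceptor transcription factors and ciliary genes, 24 were measured. Of these, 21 rose in C57BL6/J, 21 in CAST/EiJ, 23 in AKR/J, 22 in RD7 and 23 in NOD.NON-H2-nb1, and 0 fell. The shares of all probe sets called higher, given above by strain, were 4.96% to 5.54%. Cnga1, a subunit of the rod cGMP-gated channel, rose in C57BL6/J by 11.09 (SE 0.57, adjusted p = 5.31e-12) and Gnat1, the alpha subunit of rod transducin, by 10.54.

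Over all 29 arrays, the genes most like the mean profile of the members were Crb1 (Pearson's r = 0.994), Unc119 (0.993), Rgs9bp (0.993), Cnga1 (0.992) and Slc4a10 (0.992), among 11306 genes. The arrays span both ages, between which all members differ. Over the 15 P30.5 arrays alone the most alike were Slc39a6 (0.858), Apc (0.85), Sfr1 (0.827), Psmd1 (0.826) and Ddx50 (0.823), none of which was among the first 5 over all arrays. Each member correlated with the mean of the other 7 at 0.91 to 0.994 over all arrays. Over the P30.5 arrays the same correlation ranged from -0.182 for Prph2 to 0.597 for Prom1. Members were not scaled in these means, and at P30.5 Prph2 varied most, from signals of 35.8 to 4622. Prph2 thus weighs most in the P30.5 mean profile, and in the mean of the other 7 for every member but itself. These correlations are descriptions over arrays of the same groups and array dates.

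The second comparison set each strain against C57BL6/J at P30.5. None of the 8 members was called in any strain in limma, where 2.98% of all probe sets were called lower and 0.69% higher in CAST/EiJ, 0.49% lower and 0.106% higher in AKR/J, 0.0177% lower and 0.0865% higher in RD7, and 0.428% lower and 0.137% higher in NOD.NON-H2-nb1. At an adjusted p under 0.05 there was 1, Prph2 in CAST/EiJ, where 7.95% of all probe sets were lower. All comparisons at one age share the 3 C57BL6/J arrays.

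Prph2 was the member whose signal varied most between strains at P30.5. Rp1 and Impg1, the members with a second probe set, gave different answers by it in CAST/EiJ, as given below. Prph2 has 1 probe set, 1420511_at, which the RMA values do not hold, so no other measure could be set beside it. Its signals were 834, 607 and 678 in C57BL6/J, 47.6, 92.4 and 35.8 in CAST/EiJ, 458, 4622 and 3764 in AKR/J, 628, 813 and 756 in RD7, and 155, 704 and 250 in NOD.NON-H2-nb1. The 3 CAST/EiJ arrays lay below every array of every other strain. CAST/EiJ was lower than C57BL6/J by 3.70 on the log2 scale (log2 fold change -3.70, SE 0.86, 95% interval -5.48 to -1.92, adjusted p = 0.00525 in limma). On log2(signal + 16) this difference was -3.34 with an adjusted p of 0.000303, which is a call. Within the array dates that both strains share, the difference was -4.24, -4.13 and -2.72. With 1 probe set, less Prph2 RNA in CAST/EiJ and a weaker signal from the same RNA cannot be told apart, and neither was tested.

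**Figure D2:**
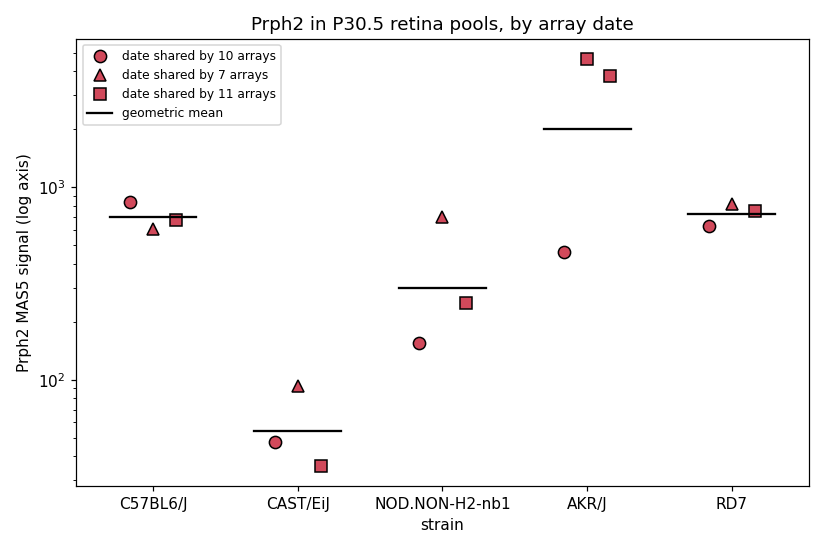
Prph2 MAS5 signal (log axis) in each P30.5 array by strain, with the symbol giving the array date by the number of arrays it holds and the line giving the geometric mean. The CAST/EiJ arrays lie at 35.8 to 92.4, below all others, and the AKR/J arrays at 458, 3764 and 4622.

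Ordered by mean log2 signal, Prph2 was at 5.75 ± 0.70 in CAST/EiJ, then 8.23 ± 1.11 in NOD.NON-H2-nb1, 9.45 ± 0.23 in C57BL6/J, 9.51 ± 0.19 in RD7 and 10.96 ± 1.85 in AKR/J (SD, n = 3). The SE of Prph2 draws on all groups, also on C57BL6/J at E18.5, where its log2 SD was 2.33. No neighbours in the order of strains passed an adjusted p of 0.05. The lowest such value was for CAST/EiJ against NOD.NON-H2-nb1 (log2 fold change -2.48, adjusted p = 0.073 in limma). Farther apart, CAST/EiJ was below RD7 by a log2 fold change of -3.75 (adjusted p = 0.00441) and was called below AKR/J (-5.21, SE 0.86, adjusted p = 0.000202), where 2.53% of all probe sets were called lower. Pairs of strains other than C57BL6/J were added after the values were seen. The call against AKR/J was lost without AKR/J replicate 2 or 3 or CAST/EiJ replicate 1 or 3, with an adjusted p of 0.00143 to 0.00255.

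The AKR/J level of Prph2 differed between array dates. AKR/J replicate 1, at 458, was on the date that 10 arrays share, and replicates 2 and 3, at 4622 and 3764, were on the date that 11 arrays share. Against the C57BL6/J array of the same date the difference was -0.87 on the first and 2.62 on the other, of opposite sign. The fitted difference of 1.51 (SE 0.86, adjusted p = 0.538 in limma) is therefore a mean of values that do not agree in direction. For the other 7 members the differences within these dates lay between -0.27 and 0.36, and their AKR/J signals at P30.5 varied by an SD of 0.05 to 0.37 on the log2 scale.

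The remaining 7 members were close to C57BL6/J at P30.5. Their log2 differences lay between -0.14 and 0.74 in CAST/EiJ, -0.25 and 0.17 in AKR/J, -0.52 and 0.08 in RD7, and -0.27 and 0.21 in NOD.NON-H2-nb1. For Rom1 the 95% interval was -0.28 to 0.76 in CAST/EiJ and -0.63 to 0.42 in RD7, so a change of 2-fold was outside it. The intervals of Prom1, Cdhr1 and Rp1 were also within 1 log2 unit of 0 in each of the 4 strains. That of Tulp1 reached past 1 in CAST/EiJ, so a change of 2-fold was not outside it there. Those of Fscn2 and Impg1 reached past 1 in each strain. Their SE of 0.68 and 0.80 draws also on the dim E18.5 arrays, while over the P30.5 arrays of a strain the log2 SD was 0.08 to 0.28 for Fscn2 and 0.09 to 0.25 for Impg1. In the RMA values the Fscn2 differences were -0.37 to 0.12 (SE 0.22), and without the E18.5 arrays of high muscle marker signal, described with the E18.5 comparison, the SE of Impg1 was 0.29. Impg1 had signals of 1707, 1743 and 1912 in C57BL6/J, 2568, 2893 and 3588 in CAST/EiJ, all higher, and 1156, 1254 and 1318 in RD7, all lower. Its adjusted p was 0.663 in CAST/EiJ and 0.999 in RD7. Fscn2 in RD7, at 1050, 1282 and 1359, was also below each C57BL6/J array (1380, 1477 and 1954, adjusted p = 0.999). Groups that did not overlap downward made up 4.45% of all probe sets in RD7 and 16.7% in CAST/EiJ, and upward 11.8% in CAST/EiJ.

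**Figure D3:**
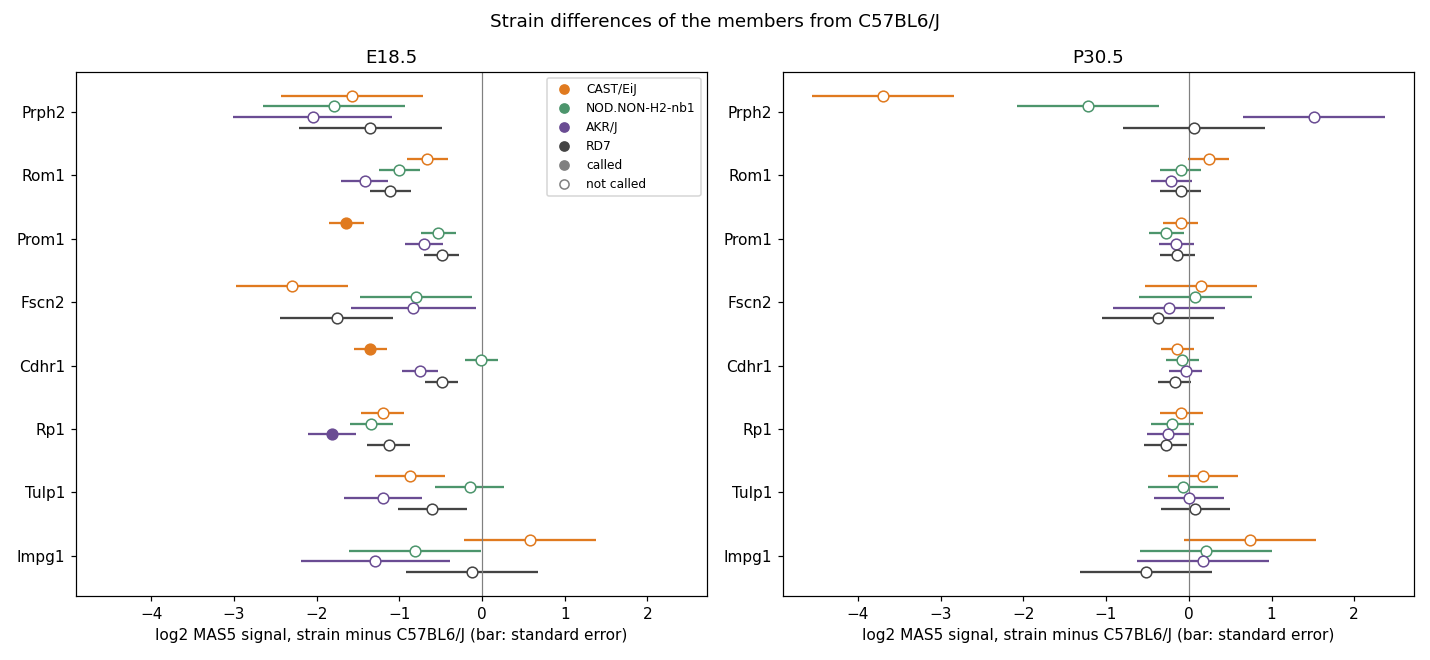
Difference in log2 MAS5 signal from C57BL6/J for each member and strain at E18.5 (left) and P30.5 (right), with the standard error as a bar and calls filled. At P30.5 most points lie near 0 and Prph2 spreads from -3.70 to 1.51, and at E18.5 nearly all points lie below 0, with 3 filled.

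Rp1 and Impg1 gave different answers by their 2 probe sets. By its second probe set, 1424964_at, Rp1 had signals of 109, 77.0 and 138 in C57BL6/J at P30.5 and 8.03, 28.3 and 30.8 in CAST/EiJ, with no overlap. The difference was -2.46 (SE 0.62, adjusted p = 0.0107 in limma), and -0.94 in the RMA values (adjusted p = 0.00015). By the brighter probe set, 1424963_at, it was -0.09 (SE 0.26). Between ages the second probe set differed by -0.17 in CAST/EiJ (adjusted p = 0.889), where its arrays overlapped, and by 1.73 (adjusted p = 0.0454) in C57BL6/J to 4.55 (adjusted p = 8.96e-06) in RD7. In the RMA values these differences were 0.24 in CAST/EiJ and 0.81 to 1.19 in the others. The test of whether the change with age differed between CAST/EiJ and C57BL6/J did not pass (-1.9, SE 0.88, adjusted p = 0.406). In the P30.5 arrays of NOD.NON-H2-nb1, RD7 and AKR/J it was at 118 to 180.

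For Impg1, the second probe set, 1425758_a_at, was at 314, 522 and 593 in the C57BL6/J arrays at P30.5 in order of level, and at 123, 173 and 239 in CAST/EiJ. This was a difference of -1.42 (adjusted p = 0.197 in limma) in MAS5 signals and of -1.25 in the RMA values (adjusted p = 0.000356), which is a call there, beside 4.3% of the RMA probe sets called lower. The brighter probe set, 1425757_a_at, was 0.74 higher. The probe sets of Impg1 thus differed in sign in CAST/EiJ and the RMA table holds only the lower of them. In RD7 both were below C57BL6/J, by log2 differences of -0.52 and -0.50, neither of which passed a test.

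**Figure D4:**
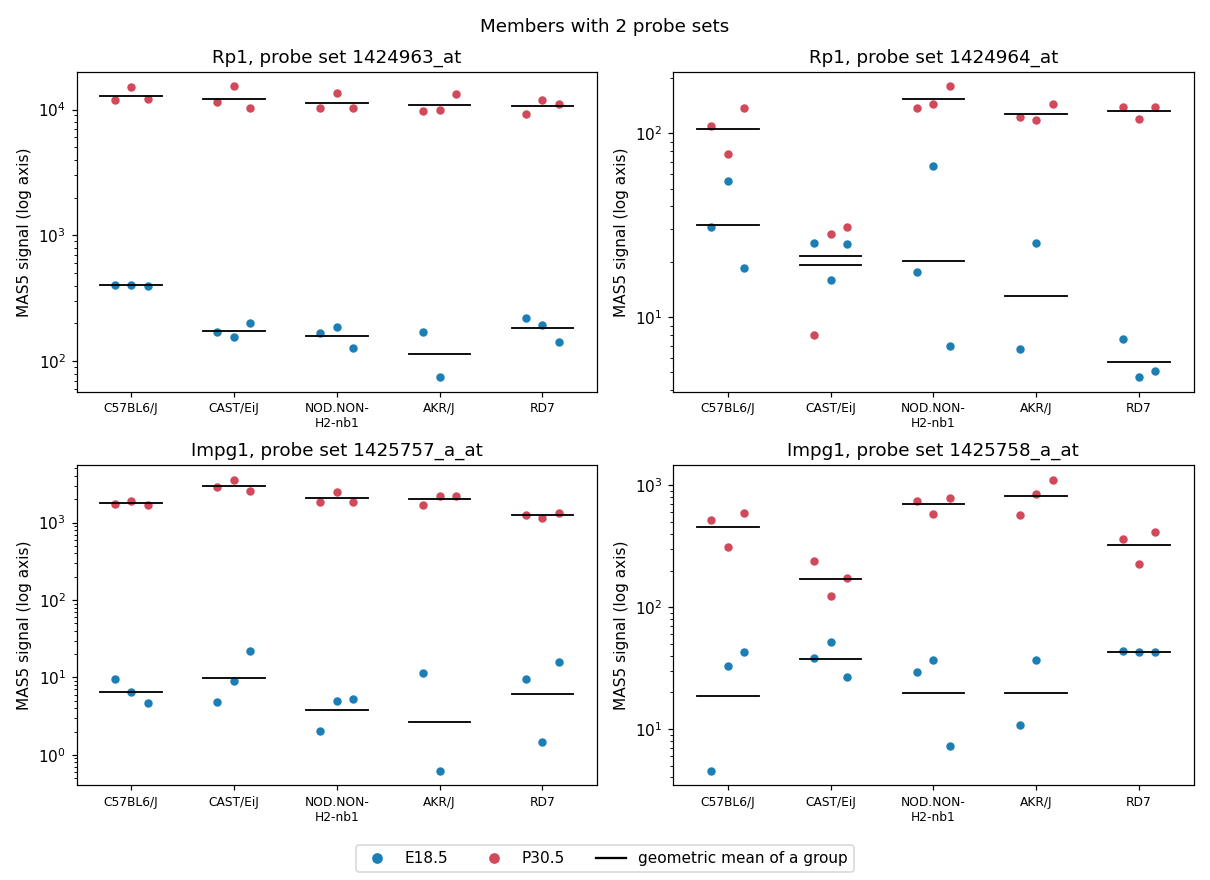
MAS5 signal (log axis) by strain, age (colour) and array for the 2 probe sets of Rp1 (top) and of Impg1 (bottom), with the geometric mean of each group as a line. In CAST/EiJ the second probe set of Rp1 stays at 8.03 to 30.8 at P30.5, while the brighter one is at 10385 to 15277.

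In CAST/EiJ at P30.5, 2.98% of all probe sets were called lower and 0.69% higher. Among the 24 other photoreceptor genes, 3 were called lower and 0 higher there, and 0 in the other strains. They were Rp1l1, a paralog of Rp1 (-5.91, SE 0.53, adjusted p = 8.35e-08), Abca4, a lipid transporter of the disc rim (-1.68, adjusted p = 0.000184), and Mak, a kinase of the photoreceptor cilium (-1.6, adjusted p = 2.26e-06).

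The third comparison set each strain against C57BL6/J at E18.5, before discs form. Prom1 and Cdhr1 were called lower in CAST/EiJ, so that 2 of 8 members were called, where 3.62% of all probe sets were called lower. In AKR/J 1 was called, Rp1 (background 0.561%), and in NOD.NON-H2-nb1 (0.432%) and RD7 (0.00443%) limma called 0. At an adjusted p under 0.05, 4 members were lower in CAST/EiJ (9.59% of all probe sets), 3 in AKR/J (2.8%), 2 in RD7 (0.246%) and 2 in NOD.NON-H2-nb1 (1.4%), and 0 were higher in any. The mean was below that of C57BL6/J for 7 members in CAST/EiJ and for all 8 in each of the other strains. The median difference of the 8 was -1.27 in CAST/EiJ, -1.24 in AKR/J, -0.85 in RD7 and -0.81 in NOD.NON-H2-nb1, while the median over all probe sets was -0.07 to 0.02. Every array of the strain lay below every C57BL6/J array for 6 members in CAST/EiJ (19.5% of all probe sets), 6 in AKR/J (21.3%), 4 in RD7 (9.57%) and 3 in NOD.NON-H2-nb1 (8.53%).

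Prom1 was at 6102, 5875 and 5558 in C57BL6/J and at 2065, 1964 and 1619 in CAST/EiJ at E18.5. CAST/EiJ was also below the 8 arrays of the other strains, at 3351 to 4809. The difference from C57BL6/J was -1.64 (SE 0.21, adjusted p = 6.21e-06 in limma). That from RD7 was -1.15 (adjusted p = 0.00057, background 2.51%) and that from NOD.NON-H2-nb1 -1.11 (adjusted p = 0.000708, background 3.02%). Both of these calls were lost without any one E18.5 array of the groups compared, with an adjusted p of up to 0.00655. They were also lost with each array centred on its median.

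Cdhr1 was at 2208, 1667 and 1784 in C57BL6/J and at 915, 638 and 685 in CAST/EiJ. The difference was -1.35 (SE 0.20, adjusted p = 4.39e-05), and within the 2 shared array dates it was -1.28 and -1.27. NOD.NON-H2-nb1, at 1804, 1838 and 1958, differed from C57BL6/J by -0.01 (adjusted p = 0.998) and was above CAST/EiJ in every array. Both Prom1 and Cdhr1 stayed called in CAST/EiJ when any one array was left out, and not in a fit of the 2 groups alone, where their adjusted p was 0.0095 and 0.029.

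For Prom1, Rp1 and Rom1 every C57BL6/J array lay above all 11 others, and Rp1 was the one member with an adjusted p under 0.05 in all 4 strains. Its C57BL6/J arrays were at 397 to 404 and the others at 74.7 to 222. The log2 difference was -1.2 in CAST/EiJ (adjusted p = 0.00225), -1.82 in AKR/J (adjusted p = 0.00042), -1.13 in RD7 (adjusted p = 0.0265) and, for NOD.NON-H2-nb1, -1.34 (adjusted p = 0.00439). The AKR/J call was lost without any one C57BL6/J array (adjusted p of 0.00201 to 0.00223). It was also lost without AKR/J replicate 2, when the difference was -1.22 (adjusted p = 0.0292), and in a fit of both groups alone (adjusted p = 0.111). In the fit with a replicate block (the array date), the Rp1 difference in AKR/J had an adjusted p of 0.00126. By the second probe set of Rp1, at signals of 4.71 to 66.8 over all E18.5 arrays, the C57BL6/J arrays overlapped with others, and the adjusted p was 0.0484 in RD7 (-2.48) and 0.363 or more elsewhere.

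Rom1 was at 451 to 600 in C57BL6/J and at 164 to 370 in the 11 others. Its difference was -1.42 in AKR/J (adjusted p = 0.00303), -1.11 in RD7 (adjusted p = 0.0267), -1 in NOD.NON-H2-nb1 (adjusted p = 0.0366) and -0.66 in CAST/EiJ (adjusted p = 0.087). In the same replicate block fit, Rom1 was called in AKR/J (-1.29, adjusted p = 0.000735). Tulp1 did not pass in any strain, with differences of -0.15 to -1.2. Prph2, Fscn2 and Impg1 were under the array median in all E18.5 arrays, and their differences between strains are of signals under 50. Fscn2 in CAST/EiJ (-2.30, adjusted p = 0.0245) was -0.79 on log2(signal + 16) (adjusted p = 0.0697) and -0.18 in the RMA values (adjusted p = 0.579).

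The E18.5 pools also differed in markers of tissue outside the retina, and the part of this in the lower member signals was not tested. The mean log2 signal of 9 skeletal muscle markers was 5.49 to 5.70 in C57BL6/J, 7.63 to 11.13 in CAST/EiJ, 11.87 to 11.97 in AKR/J, 6.94 to 11.96 in RD7 and 6 to 11.07 in NOD.NON-H2-nb1. Of these 9 genes, 7 had a mean signal under 100 in C57BL6/J and 0 did in any other strain at E18.5. Markers of mesenchyme around the eye, 9 of 10 measured, were at 5.13 to 7.74 in C57BL6/J and at 11.85 to 12.02 in AKR/J, and 10 pigment epithelium markers were at 6.71 to 7.64 and at 9.25 to 9.93. No marker of these lists was at 0 in any array, and 4 lens markers ranged from 1.97 to 10.23 in C57BL6/J and from 3.18 to 14.09 in the other strains. Every other strain had at least 1 array above the C57BL6/J range in each of these lists. Fewer photoreceptor precursors in a pool and less RNA of a gene per cell cannot be told apart in these bulk samples.

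**Figure D5:**
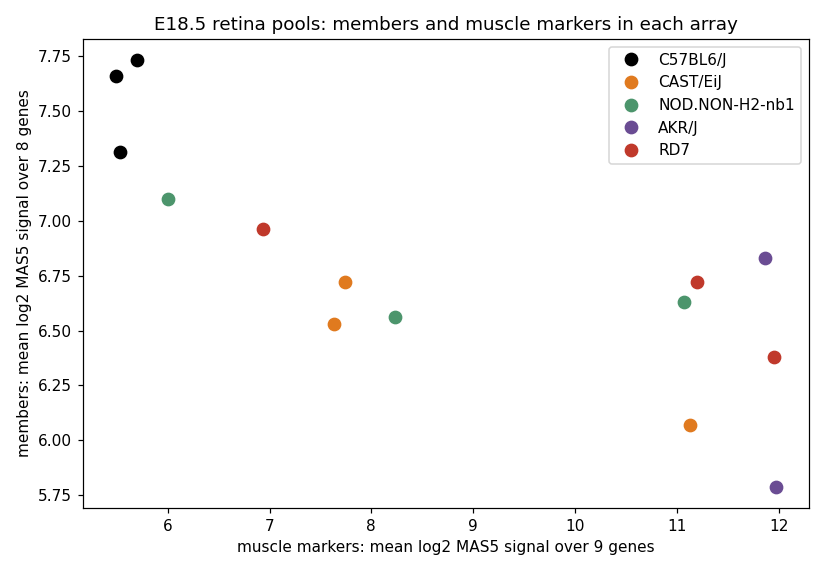
Mean log2 MAS5 signal of the 8 members (y axis) against that of 9 muscle markers (x axis) in each of the 14 E18.5 arrays, by strain. The C57BL6/J arrays hold both the highest member means, 7.31 to 7.73, and the lowest muscle means, 5.49 to 5.70. Prph2, Fscn2 and Impg1, under the array median in these arrays, count in the member mean as much as the brighter members.

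The mean log2 signal over the 8 members was 7.31 to 7.73 in the C57BL6/J arrays and 5.79 to 7.10 in all 11 others at E18.5, with no overlap. Prph2, Fscn2 and Impg1, under the array median in all these arrays, count in this mean as much as the brighter members. The AKR/J replicate with the lowest member mean, 5.79, had the highest muscle mean, 11.97. Fscn2 was at 3.11 and Impg1 at 0.629 in it, against 23.4 and 11.4 in the other AKR/J replicate. RD7 replicate 2, at a muscle mean of 11.96, had a member mean of 6.38. The order was not the same throughout. AKR/J replicate 1, at a muscle mean of 11.87, had a member mean of 6.83. CAST/EiJ replicates 2 and 3, at muscle means of 7.63 and 7.74, had lower member means of 6.53 and 6.72. Leaving out the 6 E18.5 arrays with a muscle mean of 10 or more kept 2 arrays of CAST/EiJ, 2 of NOD.NON-H2-nb1, 1 of RD7 and none of AKR/J. The CAST/EiJ arrays kept, replicates 2 and 3, still had muscle means above those of C57BL6/J, so this fit did not match the strains in muscle signal. Their pigment epithelium means, 9.54 and 9.69, also lay above those of the C57BL6/J arrays. In CAST/EiJ, Prom1 (-1.71, adjusted p = 0.000203) and Cdhr1 (-1.50, adjusted p = 6.55e-05) were called in this fit. Rp1 was -1.18 in CAST/EiJ (adjusted p = 0.00341) and, for NOD.NON-H2-nb1, -1.38 (adjusted p = 0.00469), and -0.85 in the 1 RD7 array left (adjusted p = 0.299). Rom1, past an adjusted p of 0.05 before, was then at -0.9 in NOD.NON-H2-nb1 (adjusted p = 0.205) and -1.14 in the RD7 array (adjusted p = 0.261), and Fscn2 in CAST/EiJ at -1.82 (adjusted p = 0.0544). Every E18.5 array of the other strains, at 6 or more, had a higher muscle mean than the C57BL6/J arrays, at 5.7 or less. Strain and muscle signal can thus not be told apart in any strain, and in AKR/J no array was left.

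Of the 24 other photoreceptor genes at E18.5, 1 was called higher and 4 lower in CAST/EiJ, and 1 higher and 5 lower in AKR/J, while limma called 0 in NOD.NON-H2-nb1 and RD7. Of all probe sets, 0.849% were called higher in CAST/EiJ, 0.386% in AKR/J, 0.0155% in RD7 and 0.106% in NOD.NON-H2-nb1, beside the shares called lower given above. In AKR/J, Pde6b, a rod phosphodiesterase subunit, differed by -3.41 (adjusted p = 0.000234), Rpgrip1, of the connecting cilium, by -3.31 (adjusted p = 8.99e-06), and Sag, the rod arrestin, by -2.90 (adjusted p = 0.000789). Slc24a1, the rod exchanger of sodium, calcium and potassium, was higher by 2.43 in AKR/J (adjusted p = 0.000202) and by 2.29 in CAST/EiJ (adjusted p = 2.15e-05). Mak differed by -2.78 in CAST/EiJ (adjusted p = 8.75e-10), Rp1l1 by -4.31 and Sag by -2.78.

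The last comparison asked whether the change with age differed from that in C57BL6/J. No member was called in any strain in limma, where 0.0466% of all probe sets were called higher and 0.031% lower in CAST/EiJ, 0.00443% and 0.0111% in AKR/J, 0.031% and 0.00665% in RD7, and 0.00222% and 0.00887% in NOD.NON-H2-nb1. At an adjusted p under 0.05 there were 2, both larger rises in CAST/EiJ (0.466% of all probe sets). Prom1 rose by 1.54 more (SE 0.29, adjusted p = 0.00892) and Cdhr1 by 1.2 more (SE 0.28, adjusted p = 0.0365). Both started lower in CAST/EiJ at E18.5 and were within 0.14 log2 units of C57BL6/J at P30.5. Rp1 in AKR/J, with a difference of 1.57 (SE 0.38), had an adjusted p of 0.0684.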

How the data were processed

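The deposited MAS5 signals, linear intensity values that the authors scaled within each array (labels name MAS5, target not given in the sources used here), were used for all 45101 probe sets of 29 arrays after log2 transformation. The authors also deposited RMA values, log2 expression normalized between arrays, for 25444 probe sets (56.4%), kept by a rule not given in the sources used here. Affymetrix signals carry no read depth, and the number of arrays limits the precision. A probe set was named where the annotation gave 1 symbol (34958 probe sets, with several for 932 and none for 9211).

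One mean per group was fitted across all probe sets with limma 3.58.1 in R 4.3.3 (19 residual degrees of freedom), with Benjamini-Hochberg adjustment within each of 17 contrasts. The threshold was an adjusted p under 0.001 with a 2-fold change, as in the study, beside an adjusted p under 0.05. The fit was also run on simulated shifts, placed only in probe sets with a mean log2 signal of 7 or more. That run does not cover dimmer probe sets. Every member was named with all its probe sets, and other photoreceptor genes were given as counts with at most 4 named, the largest called changes. The members and lists were chosen with earlier results of these data known.

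The labels give no replicate numbers that pair samples. Array dates, the dates in the sample titles, were shared between groups. Deviations from group means correlated at a mean of 0.048 over 120 pairs of arrays of the same date and -0.022 over 258 other pairs. Alternatives were the RMA values, median centring, quantile normalization, log2(signal + 16), a filter on dim probe sets (highest group mean of 7 or more), another variance prior, the date as a fixed or random block, other sets of arrays, other thresholds and probe set rules, and leaving out each array. The 12 contrasts between strains other than C57BL6/J, the fit without E18.5 arrays of high muscle signal and the letters TAATC were added after the data were seen. Protein sequences were not used here.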

Additional observations from a re-analysis of the deposited data

Results flagged for a closer look

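The change with age of 2 members differed between CAST/EiJ and C57BL6/J by the test of the difference itself in limma, at an adjusted p under 0.05. Prom1 rose by 1.54 more on the log2 scale in CAST/EiJ (SE 0.29, adjusted p = 0.00892), with an adjusted p of up to 0.0308 when any one array was left out and of 0.129 in a fit of the 4 groups alone. Cdhr1 rose by 1.2 more (SE 0.28, adjusted p = 0.0365), and its adjusted p was above 0.05 in 11 of the 12 fits without one array, reaching 0.0978. Both differences lie at E18.5, where the muscle markers also differed between the strains. Without the E18.5 arrays of high muscle signal they were 1.61 (adjusted p = 0.032) and 1.36 (adjusted p = 0.0205). The CAST/EiJ arrays kept in that fit still had higher muscle means than the C57BL6/J arrays.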

How the results depend on the processing

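No result past an adjusted p of 0.05 in the main fit changed direction by the same probe set under any alternative. Between probe sets Impg1 did in CAST/EiJ at P30.5. It was higher by the brighter probe set in the main fit and called lower by the second in the RMA values. The 8 members that rose with age numbered 3 in RD7 and 2 in each other strain in the RMA values, which hold only 3 members. Fitted on the groups compared alone, they numbered 0 in AKR/J, 3 in RD7 and 4 in each other strain. At P30.5 the count in CAST/EiJ of 0 became 1 in the RMA values (Impg1), with log2(signal + 16) and at an adjusted p under 0.05 (Prph2 in both). At E18.5 the 2 calls in CAST/EiJ became 0 in the 2 groups alone, and 4 at an adjusted p under 0.05. The count was also 0 in the RMA values, which lack the probe sets of Prom1 and Cdhr1, so these calls could not recur there. The 0 calls in NOD.NON-H2-nb1 became 1 with the trend and robust variance prior and 2 at an adjusted p under 0.05, and the 0 in RD7 became 2 at that threshold. The 1 call in AKR/J became 0 in the 2 groups alone and 3 at an adjusted p under 0.05. It became 2 with quantile normalization, the trend and robust prior or the date as a random block. The count was 0 in the RMA values, which lack the called probe set of Rp1, so this call could not recur there. It was 0 to 1 with an array left out, and 0 without any one C57BL6/J array or AKR/J replicate 2. For the change with age in CAST/EiJ the count of 0 became 1 with quantile normalization (Prom1) and 2 at an adjusted p under 0.05. In the fit with a replicate block (the array date), 0 of 17 counts moved and 2 of 76 named results changed their call, Rp1 (-1.83) and Rom1 (-1.29) in AKR/J at E18.5. The cause of these changes was not tested, beyond the smaller number of members or arrays in the RMA values and in the fits of fewer groups. Signals under the array median limit what can be said of Prph2, Fscn2 and Impg1 at E18.5.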
